A study of Mus musculus with 12 samples.

Results

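H19, an imprinted long non-coding RNA, and 9 other imprinted genes (Igf2, Igf2r, Cdkn1c, Meg3, Grb10, Plagl1, Peg3, Mest and Kcnq1ot1) were followed through 12 RNA-seq libraries of thymic pre-T cells. These are 10 of the 43629 genes in the count table, found by matching its Ensembl identifiers to mouse gene symbols. The members were chosen by name, and H19 was chosen by its measured counts in these libraries, which were much lower in DN3b than in DN3a cells of control mice. The comparison of those stages is therefore given for the 10 genes as a description, without a test. The libraries hold total RNA of flow-sorted thymus cells of C57BL/6 mice, in 3 groups with 4 biological replicates each. DN3a and DN3b cells, thymocytes without CD4 and CD8 at the stages before and after beta selection, came from control mice with the genotype Zfp36l1fl/fl, Zfp36l2fl/fl. The cells called DCKO here were DN3-like cells of mice that carry the same floxed alleles and also CD2cre, so the controls have the floxed alleles without the recombinase. CD2cre is a Cre recombinase under CD2 control, which acts in lymphoid cells from early stages onward, and other lymphocytes of these mice can lack both genes too. Zfp36l1 and Zfp36l2 encode RNA-binding proteins that recognise AU-rich elements and promote decay of the transcripts that carry them. The sources used here give neither age nor sex and do not say whether a library pools several mice.

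Imprinted genes are transcribed mainly from the maternal or the paternal copy, according to DNA methylation marks set in the germ line. H19 (maternal) and Igf2 (paternal) are neighbours that share enhancers, and a methylation-sensitive insulator between them bound by CTCF decides which gene the enhancers reach. Several imprinted genes act on growth: Igf2 is a growth factor ligand, Igf2r clears that ligand, Grb10 is an adaptor that dampens insulin and IGF receptor signalling, and Cdkn1c (p57) inhibits cyclin-dependent kinases. In blood, H19 and its domain are best known for their role in haematopoietic stem cells, where maternal imprinting at H19 restrains Igf2 signalling. Counts per gene do not separate the parental copies, so none of the values below shows from which copy a transcript came.

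The libraries held 28479157 to 45975678 counts. The targeted genes were low in DCKO throughout: Zfp36l1 was at 33.9 ± 7.15 CPM (counts per 1e+06 counts) in DN3a against 14.3 ± 6.13 in DN3b and 2.33 ± 1.01 in DCKO, and Zfp36l2 at 541 ± 145, 364 ± 79.4 and 63.9 ± 20.1 (SD, n = 4 libraries a group). All 12 pre-T cell markers listed, among them Ptcra, Cd3e, Rag1 and Il2ra, were detected. Of 10 markers of thymic mesenchyme, a tissue rich in imprinted transcripts, 9 stayed under 1 CPM in every library, with Pdgfra, Lum and Mfap5 at 0 counts throughout. Pdgfrb made up nearly all of that list's summed level, which ran from 30.4 to 61.2 CPM in DN3a against 16.7 to 31.2 in DN3b and 23.9 to 40.2 in DCKO. Of 10 markers of thymic epithelium, 5 stayed under 1 CPM in every library, Foxn1 and Krt5 among them, and the list summed to 84.8 to 139 CPM in DN3a against 20.1 to 55.2 in DN3b and 16.3 to 24.7 in DCKO. That fall was not shared by the list: of 7 tested genes, Epcam and Aire were called lower in DN3b than in DN3a. Prss16 was called higher and 4 were not called, with a median log2 difference of 0.18. In DCKO against DN3a Epcam and Aire were again called lower, and 5 were not called. Of 12 markers of early progenitors, 8 stayed under 1 CPM in every library, with Gata2 at 0 counts, and the sums were 39.6 to 61.3, 21.6 to 35.3 and 38.7 to 56.7 CPM. Of 8 B cell markers 6 stayed under 1 CPM (Pax5 among them). Their sums were 46.1 to 61.1 CPM in DN3a against 10.9 to 34.1 in DN3b and 20.5 to 25.4 in DCKO. Of 11 myeloid markers 5 stayed under 1 CPM, and the sums were 24.2 to 34.9, 5.69 to 14.2 and 11.9 to 28.3 CPM. Of 9 endothelial markers 5 stayed under 1 CPM, and the sums were 129 to 171, 86.1 to 138 and 95.1 to 215 CPM. Of 8 erythroid markers 3 stayed under 1 CPM, and the sums were 8.32 to 26.7, 2.83 to 29.6 and 4.15 to 17.6 CPM. For these last lists the highest library was not in DN3a. Markers of CD4 and CD8 expressing thymocytes were all present, at 736 to 871, 469 to 612 and 607 to 703 CPM in sum. The part of these cell types in the results on imprinted genes was not tested, and in bulk samples fewer cells that express a gene and less RNA per cell cannot be told apart.

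Sequences of 2 kinds help to read the values. The first is the pair of microRNAs cut from H19 itself, whose hairpin lies within the first exon of the RNA. In mouse the H19 transcript is the precursor of miR-675, a growth-restraining microRNA. Both mature forms are shown 5′ to 3′ from RefSeq (GRCm38.p6, minus strand), at chr7:142577112-142577133 and chr7:142577078-142577099, with the seed (bases 2 to 8) in capitals.
mmu-miR-675-5p: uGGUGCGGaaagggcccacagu
mmu-miR-675-3p: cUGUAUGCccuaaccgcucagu
The seeds differ, so the 2 forms belong to different seed families. The hairpin covers 84 of the 2460 exon bases of H19 (3.41%) and has a row of its own in the count table, Mir675, which held 0 counts in every library, where a count of 0 allows up to 3 counts. These values therefore describe the long RNA and say nothing of the mature microRNA.

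The second kind is the AU-rich core TATTTAT, the letters that proteins of the ZFP36 family recognise (as UAUUUAU in RNA). It was searched on the transcript strand of each gene's longest annotated transcript in GENCODE M21. The core stood in the last 1000 bases of 4 of the 10 genes: Igf2r, Cdkn1c, Grb10 and Meg3. Of 12393 tested genes with a transcript of at least 1000 bases, 2457 (19.8%) did so. That share covers genes with enough counts for a test, which 4 of the 10, Meg3 among them, did not have. H19, Igf2, Plagl1, Peg3 and Mest had no match anywhere in the transcript searched, and Kcnq1ot1, with 93092 bases, had 12 matches, none of them in its last 1000 bases. The 4 sites are shown 5′ to 3′ with the core in capitals, as the members that hold it near the 3′ end. They lie in GRCm38 at chr17:12683293-12683315 (Igf2r, minus strand), chr11:11931375-11931397 (Grb10, minus), chr7:143458634-143458656 (Cdkn1c, minus) and chr12:109571175-109571197 (Meg3, plus).
Igf2r: ctctccccTATTTATtgactttg
Grb10: ggatctcaTATTTATaagtatgc
Cdkn1c: aatatttgTATTTATccatgcgt
Meg3: taggttttTATTTATtggaaaag
A match is a description of the letters and shows no binding, and the search covered only these letters in these transcripts.

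H19 (ENSMUSG00000000031) is annotated as a long intergenic non-coding RNA at chr7:142575529-142578143 on the minus strand of GRCm38. It was abundant in DN3a and far lower in most libraries of the other groups. Its levels in DN3a libraries 1 to 4 were 733, 214, 274 and 617 CPM, from 24830, 11465, 11568 and 18976 counts. In DN3b the same-numbered libraries stood at 106, 26.1, 14.8 and 28.7 CPM. All 4 DN3b libraries lay below the lowest DN3a library, and DN3b library 1 lay well above the others of its group. In DCKO the levels were 93.1, 203, 43.6 and 8.45 CPM. DCKO library 2 came close to the lowest DN3a library without reaching it, while DCKO library 4 was the lowest of all 12.

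The group means of H19 were 459 ± 254 CPM in DN3a against 43.9 ± 41.9 in DN3b and 87.0 ± 84.6 in DCKO (SD, n = 4). The fitted log2 difference between DN3b and DN3a, the contrast for which H19 was picked, was -3.38 ± 0.85 (SE), which is 10.4-fold. Within the same-numbered libraries H19 was 6.90-, 8.18-, 18.5- and 21.5-fold lower in DN3b. Every pair went the same way, and the size of the difference varied more than 3-fold among the pairs.

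Against DN3a, H19 fell in DCKO by 2.40 ± 0.81 on the log2 scale (SE; 5.28-fold), with an edgeR adjusted p of 0.0214 over all genes, and the groups did not overlap. The DN3a libraries of this test are those by which H19 was picked, so only the DCKO side is new. Leaving out DCKO library 3 gave -2.22 with an adjusted p of 0.0545, and leaving out DCKO library 2 gave -3.28 (0.00662). Against DN3b the log2 difference was 0.98 ± 0.78 (adjusted p = 0.406), and the groups overlapped, since DCKO library 4 lay below every DN3b library and DCKO library 2 above every one. Neither a difference nor a like level was shown for that pair of groups: the value became -0.75 (0.678) without DCKO libraries 1 and 2.

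**Figure D1:**
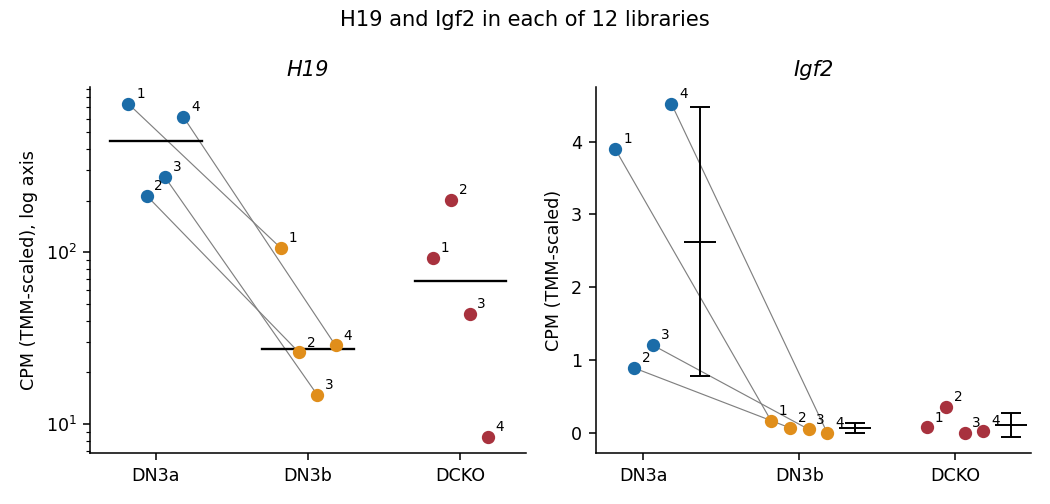
H19 (left, log axis) and Igf2 (right, linear axis) in CPM on TMM-scaled library sizes, 1 numbered point per library, with grey lines joining DN3a and DN3b libraries of the same number. Black bars are the group median for H19 and the mean ± SD for Igf2 (n = 4); all 4 DN3a libraries lie above every DN3b and DCKO library for both genes, and H19 in DCKO spreads from 8.45 to 203 CPM.

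H19 was also among the most variable genes within each group. Its highest library exceeded its lowest 3.42-fold in DN3a, 7.17-fold in DN3b and 24.0-fold in DCKO. Its coefficient of variation was 55.4%, 95.3% and 97.3% in the same order, against a median of 12.3%, 12.6% and 11.9% over the genes with a mean of at least 10 CPM in the group. That was higher than in 99.2% of such genes in DN3a, 99.8% in DN3b and 99.8% in DCKO. The summed level of the pre-T cell markers ranked the libraries as H19 did in each group: it was 10703, 7724, 7726 and 9129 CPM in DN3a libraries 1 to 4, 7262, 5254, 5177 and 5392 in DN3b, and 10992, 13215, 9595 and 8417 in DCKO. DN3b library 1, high for H19, also had the highest sums of its group for most marker lists of other cells. They were 29.6 CPM for erythroid cells (2.83 to 5.63 in the other DN3b libraries), 55.2 for epithelium (20.1 to 32.1), 34.1 for B cells (10.9 to 20.2), 31.2 for mesenchyme (16.7 to 23.3) and 14.2 for myeloid cells (5.69 to 11.4). The endothelial sum was 138 CPM (86.1 to 128 in the others). Early progenitors were the exception, at 35.1 CPM against 35.3 in DN3b library 2. In DCKO library 2, where H19 was highest, the erythroid, mesenchyme, myeloid, endothelial and early progenitor sums were the lowest of the group and the epithelial sum the highest. The part of these cells in the level of H19 was not tested.

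Igf2 (ENSMUSG00000048583, chr7:142650766-142666816, minus strand), the IGF2 ligand, was scarce everywhere and followed the same order of groups. In DN3a its counts were 132, 48, 51 and 139. In DN3b they were 7, 3, 2 and 0, and in DCKO 2, 13, 0 and 1. The 2 DN3a libraries with most H19, numbers 1 and 4, also held most Igf2, and DCKO library 2 held most of both within its group. No DN3b or DCKO library reached the lowest DN3a library. The means were 2.63 ± 1.84, 0.0734 ± 0.0695 and 0.119 ± 0.166 CPM (SD, n = 4), and the DN3b to DN3a log2 difference was -5.01 ± 0.89 (32.2-fold), as a description.

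In DCKO Igf2 fell by 4.38 ± 0.85 on the log2 scale against DN3a (20.9-fold, edgeR adjusted p = 0.000729). Igf2 passed the low-count filter through its DN3a libraries alone, so the filter favours a fall from DN3a. Without the filter the log2 difference was -4.38 (edgeR adjusted p = 0.000196). The fall grew to 6.21 (adjusted p = 0.000345) without DCKO library 2, which holds 13 of the group's 16 counts. Against DN3b the difference was 0.62 ± 1.09 (adjusted p = 0.729), from 16 and 12 counts in all, and it was -1.19 (0.598) without DCKO library 2. Of Igf2's exon bases, 62.8% are shared with the annotated read-through gene Gm49394 on the same strand, which has no row in the table used here, and 1.71% with the antisense gene Igf2os. For each Igf2 count there were 181 H19 counts in DN3a against 580 in DN3b and 721 in DCKO, so H19 stayed in large excess in all 3 groups, with few Igf2 counts behind the last 2 values.

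The transcripts around H19 show what the fall of this pair shared with the surrounding chromosome. Within 200000 bases on either side, 18 annotated genes including H19 had a row in the table, 12 had at least 1 count and 5 passed the low-count filter: Ctsd, Lsp1, Mrpl23, H19 and Igf2. Nctc1, a non-coding RNA just downstream of H19 near a muscle enhancer, had 30 counts in DN3a against 3 in DN3b and 0 in DCKO. Igf2os, the antisense RNA of Igf2, had 14, 1 and 0 counts, and Tnnt3, a fast skeletal muscle troponin gene, had 42, 9 and 2. These 3 scarce transcripts were highest in DN3a, as H19 and Igf2 were, though with too few counts for the filter. Other scarce ones were not: the troponin gene Tnni2 had 5, 3 and 12 counts and the pseudogene Gm7290 had 5, 7 and 1.

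The more abundant neighbours did not move as 1 block. Mrpl23, which encodes a mitochondrial ribosomal protein and is the nearest of them, stood at 33.7 ± 4.33 CPM in DN3a against 52.0 ± 4.47 in DN3b and 50.3 ± 4.87 in DCKO, and rose in DCKO against DN3a by 0.58 ± 0.11 on the log2 scale (edgeR adjusted p = 0.000793). Lsp1, a leukocyte actin-binding protein, fell from 50.3 ± 7.70 CPM in DN3a to 21.3 ± 6.93 in DCKO (log2 -1.24 ± 0.31, adjusted p = 0.00405, or 0.0599 without DCKO libraries 1 and 2). Ctsd, the lysosomal protease cathepsin D, was at 439 ± 95.5 CPM in DN3a and 348 ± 24.9 in DCKO (log2 -0.33 ± 0.20, adjusted p = 0.173), and passed in 3 of 21 alternatives, upper quartile scaling among them (-0.56, 0.0285). Against DN3b none of these 3 neighbours passed in DCKO, with adjusted p of 0.804, 0.366 and 0.123, but Ctsd passed without DN3b library 1 (0.75, 0.00511).

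**Figure D2:**
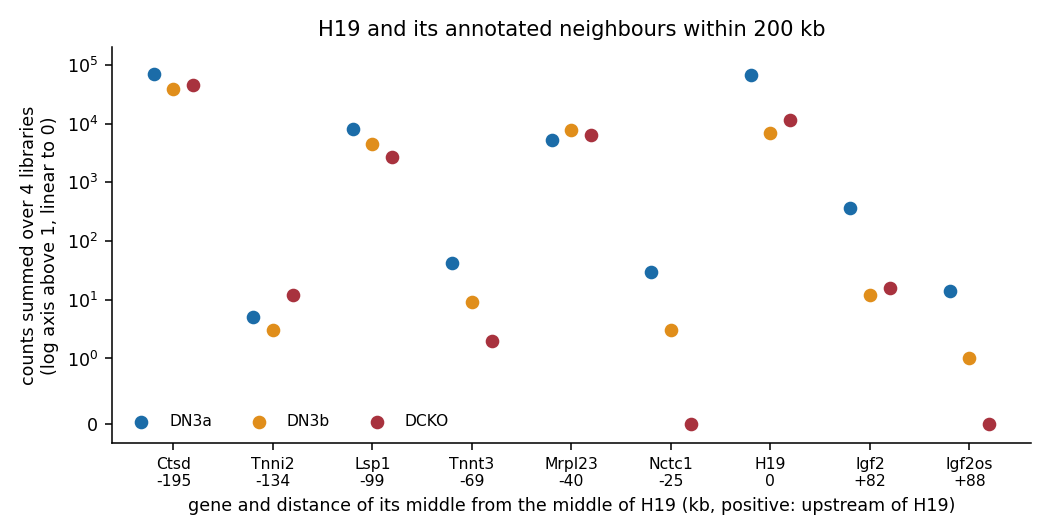
Counts summed over the 4 libraries of each group for H19 and the neighbouring protein-coding and long non-coding genes with at least 1 count, ordered by the distance of their middle from that of H19 (kb; the axis is logarithmic above 1 count). Igf2, Igf2os, Nctc1 and Tnnt3 are highest in DN3a, as H19 is, whereas Mrpl23 is lowest there and Tnni2 is highest in DCKO; 2 small RNA genes within H19 and a pseudogene are not drawn.

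Igf2r (ENSMUSG00000023830, chr17:12682406-12769664, minus strand) encodes the receptor that binds IGF2 and mannose 6-phosphate and delivers IGF2 to lysosomes. It was among the well expressed genes and the steadiest of the 10. Its DN3a libraries stood at 168, 161, 162 and 182 CPM and its DN3b libraries at 167, 159, 171 and 184. The DCKO libraries stood at 232, 258, 207 and 203 CPM. Control libraries of the 2 stages overlapped throughout, and every DCKO library lay above every control library.

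Igf2r means were 168 ± 9.76 CPM in DN3a against 170.0 ± 10.4 in DN3b and 225 ± 25.4 in DCKO (SD, n = 4). The DN3b to DN3a log2 difference was 0.02 ± 0.09. In DCKO it rose by 0.42 ± 0.09 against DN3a (1.34-fold, edgeR adjusted p = 0.00192) and by 0.40 ± 0.09 against DN3b (1.32-fold, adjusted p = 0.0102). With upper quartile scaling the first became 0.20 (adjusted p = 0.0673), and without DCKO libraries 1 and 2 the second became 0.27 (0.152). That scaling moved the median log2 difference of all genes between DCKO and DN3a from -0.04 to -0.26.

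Airn is the paternally expressed antisense RNA that overlaps the Igf2r promoter and silences the paternal Igf2r copy in tissues where the gene is imprinted. Its levels and those of Igf2r differed in their pattern over the groups. Airn stood at 11.6, 14.9, 15.5 and 12.1 CPM in the DN3a libraries, 7.29, 8.86, 7.62 and 6.15 in DN3b and 5.44, 6.43, 6.20 and 6.00 in DCKO. Every DN3a library was above every other library. In DCKO Airn fell by 1.17 ± 0.15 on the log2 scale against DN3a (2.25-fold, edgeR adjusted p = 4.4e-05), and it differed from DN3b by -0.31 ± 0.15 (0.169). Between the control stages, where Igf2r differed by 0.02, Airn fell by 0.86 ± 0.15 in DN3b (edgeR adjusted p = 0.000579). Airn shares 0 exon bases with Igf2r, and whether the counting used strand is not stated in the labels.

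Grb10 (ENSMUSG00000020176, chr11:11930508-12038683, minus strand), the adaptor that dampens insulin and IGF receptor signalling, was scarce. Its counts in DN3a were 10, 26, 38 and 31 and in DN3b 42, 30, 18 and 28. In DCKO they were 42, 135, 56 and 16, with 135 of the 249 in library 2 alone. DCKO library 4 lay within the range of both control groups and the other DCKO libraries above it. Mean levels were 0.672 ± 0.337, 0.781 ± 0.230 and 1.86 ± 1.37 CPM (SD, n = 4).

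Grb10 rose in DCKO against DN3a by 1.47 ± 0.53 on the log2 scale (2.78-fold), with an edgeR adjusted p of 0.0273. This call was lost without DCKO library 2 (0.83, 0.156), without DN3a library 1 (1.23, 0.0672) or without DN3a library 2 (1.34, 0.0735), and in 8 of 21 alternatives in all. Against DN3b the difference was 1.25 ± 0.52 (adjusted p = 0.111), and it passed only without DCKO library 4 (1.56, 0.0276) among the alternatives run. The DN3b to DN3a difference was 0.22 ± 0.53.

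Cdkn1c (ENSMUSG00000037664, chr7:143458339-143461050, minus strand), the cyclin-dependent kinase inhibitor of the neighbouring KCNQ1 imprinted domain, was scarcer still. DN3a libraries held 7, 3, 3 and 3 counts. DN3b libraries held 27, 15, 16 and 4, and DCKO libraries 16, 14, 9 and 21. All DCKO libraries were above all DN3a libraries in CPM, while DN3b library 4 fell within the DN3a range. The means were 0.108 ± 0.0680, 0.391 ± 0.211 and 0.485 ± 0.209 CPM (SD, n = 4).

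Cdkn1c rose in DCKO against DN3a by 2.18 ± 0.57 on the log2 scale (4.52-fold, edgeR adjusted p = 0.0051). It passed the low-count filter only through DN3b and DCKO libraries, so the filter favours a rise from DN3a. The call held in each of the 18 alternatives that could test it, but most of these used the same filter. With no filter Cdkn1c differed from DN3a by 2.17 (edgeR adjusted p = 0.00611). Against DN3b it differed by 0.26 ± 0.49 (adjusted p = 0.748), and by -0.02 (0.979) without DN3b library 4. The DN3b to DN3a difference, as a description, was 1.92 ± 0.57. Its direction between the control stages was thus opposite to that of H19 and Igf2, which lie on the same chromosome.

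Kcnq1ot1 (ENSMUSG00000101609, chr7:143203458-143296549, minus strand) is the paternally expressed antisense RNA, 93092 bases long in 1 exon, that silences Cdkn1c and other genes of that domain on the paternal copy. Its DN3a libraries stood at 164, 211, 235 and 254 CPM, its DN3b libraries at 136, 177, 204 and 163, and its DCKO libraries at 150.3, 203, 229.7 and 189. The 3 groups overlapped, library 1 was the lowest of each, and DN3b was lower than DN3a in each of the 4 same-numbered pairs. Means were 216 ± 39.2, 170.2 ± 28.3 and 193 ± 33.1 CPM (SD, n = 4). DCKO differed by -0.16 ± 0.16 from DN3a (edgeR adjusted p = 0.404) and by 0.18 ± 0.16 from DN3b (0.469). The DN3b to DN3a log2 difference, as a description, was -0.34 ± 0.16, and -0.36 with the replicate number as a block. Kcnq1, the protein-coding gene on the other strand, had 1 count in all 12 libraries together.

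**Figure D3:**
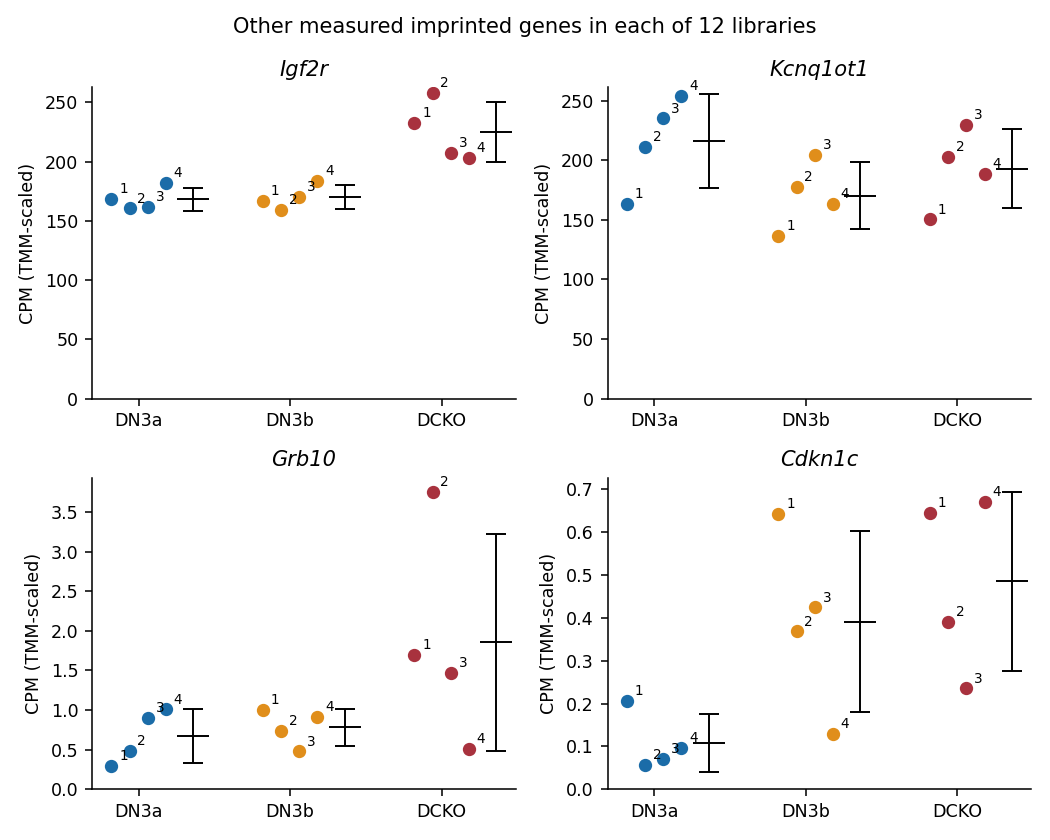
Igf2r, Kcnq1ot1, Grb10 and Cdkn1c in CPM on TMM-scaled library sizes, 1 numbered point per library, with the group mean ± SD (n = 4) beside the points. The DCKO libraries of Igf2r all lie above the control libraries, those of Grb10 spread from 0.510 to 3.76 CPM, Cdkn1c is lowest in DN3a, and the groups of Kcnq1ot1 overlap.

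The other 4 genes gave too few counts for a test. Meg3, a maternally expressed long non-coding RNA with growth-suppressing activity, had 2, 2, 5 and 4 counts in DN3a against 1, 2, 3 and 2 in DN3b and 0, 0, 4 and 0 in DCKO. Plagl1, a zinc finger transcription factor, had 0, 7, 2 and 0 counts in DN3a against 8, 14, 16 and 7 in DN3b and 6, 0, 6 and 3 in DCKO. Plagl1 was the most abundant of the 4 and highest in DN3b, though DN3a library 2 reached the count of DN3b library 4. Without the low-count filter Plagl1 differed in DCKO by 1.15 from DN3a (edgeR adjusted p = 0.377) and by -1.30 from DN3b (0.370). Peg3, a zinc finger gene, had 3, 2 and 2 counts per group, and Mest, which encodes a hydrolase-like protein, had 3, 2 and 1. Of Mest's exon bases 23.1% overlap Copg2 on the other strand, which had 42753 counts.

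Per kilobase of exon the mean levels of the 10 genes in DN3a ran from H19 at 187 CPM per kb to Peg3 at 0.00183. The order of mean levels in DN3a was H19, Igf2r (18.1), Kcnq1ot1 (2.32), Igf2 (0.459), Grb10 (0.0739) and Cdkn1c (0.0528), with the 4 untested genes at 0.00569 or less. The ranges of neighbours among these 6 did not overlap, except those of Grb10 and Cdkn1c. In DN3b H19 (17.9 CPM per kb, range 6.02 to 43.1) and Igf2r (18.3, range 17.1 to 19.8) overlapped, and Igf2 (0.0128) dropped to below Cdkn1c (0.192), Grb10 (0.0860) and Plagl1 (0.0379). In DCKO the order was H19 (35.4, range 3.44 to 82.4), Igf2r (24.2), Kcnq1ot1 (2.07), Cdkn1c (0.238) and Grb10 (0.204), where only the step from Igf2r to Kcnq1ot1 and that from Kcnq1ot1 to Cdkn1c had no overlap.

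Counted over the 6 of 10 genes that passed the low-count filter, 3 were higher in DCKO than in DN3a (Igf2r, Cdkn1c and Grb10), 2 were lower (H19 and Igf2) and Kcnq1ot1 did not pass. This contrast called 60.2% of all 13944 tested genes, 30.7% higher and 29.5% lower, so a count of 5 in 6 stands against a high background. With upper quartile scaling the count became 1 higher (Cdkn1c) and 2 lower, and the split over all genes moved from 4275 higher and 4116 lower to 3119 and 5528. The libraries of DCKO and DN3a did not overlap for 4 of the 6 genes, against 54.9% of all genes tested. Igf2 passed the filter through DN3a libraries alone and Cdkn1c through none of them, so the filter favours the direction seen for both. With at least 10 counts required in every library, 4 genes were tested, 2 higher (Igf2r and Grb10) and 1 lower (H19).

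Against DN3b, 1 of the 6 genes was higher in DCKO (Igf2r), none was lower and 5 did not pass, where 18.9% of all genes were called (10.3% higher, 8.58% lower). Libraries did not overlap for Igf2r alone, against 20.9% of all genes. With upper quartile scaling Igf2r alone passed as well, while the split over all genes moved from 1438 higher and 1197 lower to 1051 and 1644. In the contrast of DN3b with DN3a, by which H19 was picked, 52.6% of all genes were called (27.4% higher, 25.2% lower) and the libraries of 47.9% did not overlap, as was the case for H19 and Igf2. The median log2 difference of the 6 genes was 0.13 in DCKO against DN3a and 0.51 against DN3b, beside -0.04 and -0.02 over all genes. The comparisons share libraries, so these counts are not independent of each other.

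**Figure D4:**
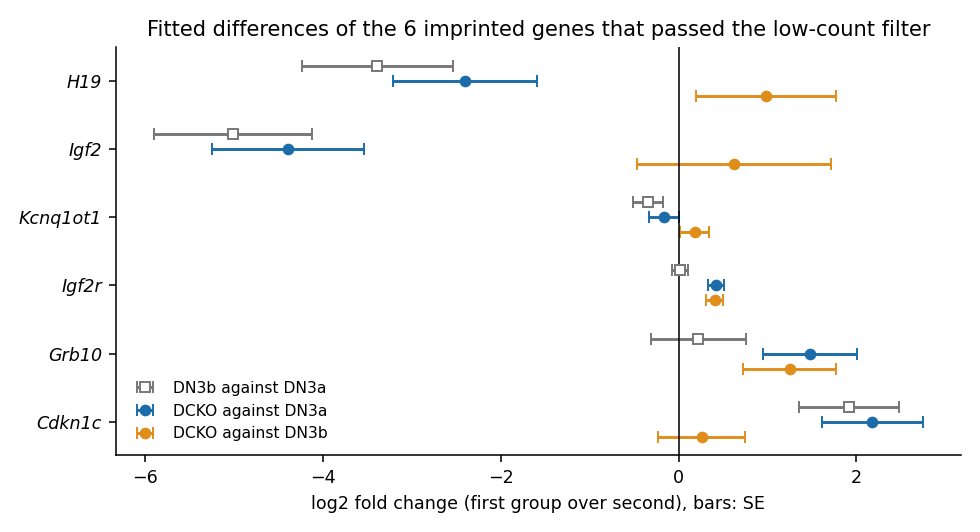
Fitted log2 fold changes with their standard errors for the 6 imprinted genes that passed the filter, with open grey squares for DN3b against DN3a (a description, since this contrast chose H19), blue points for DCKO against DN3a and orange points for DCKO against DN3b. H19 and Igf2 lie far to the left in both contrasts with DN3a, and the error bars of Igf2r are the shortest.

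A wider list of 61 imprinted genes was examined for the same contrasts. Of these, 60 had a row, 16 were at 0 counts in all libraries (among them Phlda2, Ascl2, Dio3, Rtl1 and Ins2) and 27 passed the filter. In DCKO against DN3a 10 of the 27 were higher and 6 lower, or 8 and 10 with upper quartile scaling. Against DN3b 3 were higher and 4 lower. Over all tested genes 60.2% and 18.9% were called in the same contrasts. The median log2 difference over the 27 was 0.11 and 0.15, against -0.04 and -0.02 over all genes.

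Among the 16 tested genes listed as maternally expressed, 7 rose and 3 fell in DCKO against DN3a, where 60.2% of all genes were called. The lists name a parental copy, and whether a listed gene is imprinted in these cells was not measured. Nap1l4, a nucleosome assembly protein, rose by 0.84 ± 0.08 on the log2 scale (edgeR adjusted p = 7.63e-06), Commd1, a copper and NF-kappaB regulator, by 1.09 ± 0.13 (2.07e-05) and Atp10a, a phospholipid flippase, by 1.24 ± 0.19 (0.000116). The tetraspanin Cd81 moved in both DCKO contrasts, in opposite directions. Its libraries stood at 2.21, 3.96, 4.45 and 5.91 CPM in DN3a against 14.95, 22.7, 21.8 and 28.5 in DN3b and 8.87, 6.65, 6.48 and 9.03 in DCKO. The 3 groups did not overlap, with DCKO between the control stages. In DCKO Cd81 was higher than in DN3a by 0.91 ± 0.27 (adjusted p = 0.0108) and lower than in DN3b by 1.50 ± 0.27 (0.0022).

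Of the 11 tested genes listed as paternally expressed, 3 rose and 3 fell in DCKO against DN3a, again beside 60.2% of all genes. Sfmbt2, a Polycomb group gene, fell from 24.3 ± 2.64 CPM in DN3a to 7.88 ± 1.09 in DCKO (log2 -1.62 ± 0.16, edgeR adjusted p = 7.29e-06), and it was lower than in DN3b, 11.7 ± 2.19 CPM, by 0.57 ± 0.16 (0.0248), a call lost in 6 of 21 alternatives. Zrsr1, a splicing factor gene that lies within an intron of Commd1, fell by 0.65 ± 0.15 (0.00251) while Commd1 rose. Nespas, an antisense RNA of the Gnas domain, rose by 0.86 ± 0.16 (0.000487). The other calls in DCKO against DN3b, named after their values were seen, were Ube3a (0.57 ± 0.13, adjusted p = 0.00828), Blcap (1.10 ± 0.15, 0.000381) and Inpp5f (0.54 ± 0.13, 0.014), which were higher, and Tspan32 (-2.59 ± 0.53, 0.00534) and Osbpl5 (-0.70 ± 0.20, 0.0301), which were lower.

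**Figure D5:**
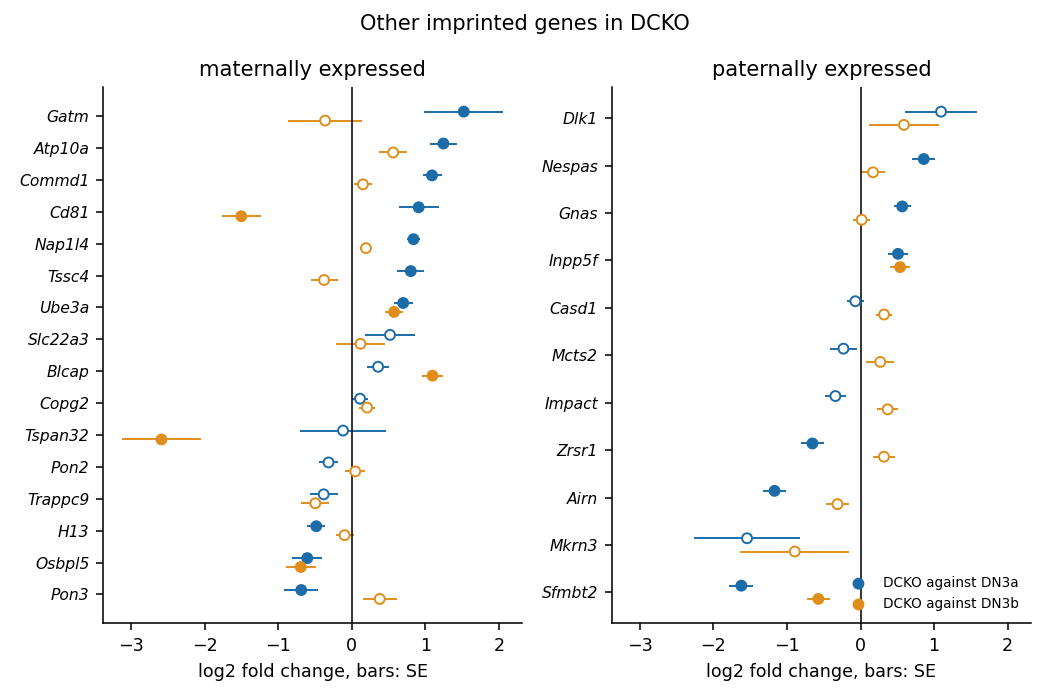
Log2 fold changes with standard errors of the 27 other imprinted genes that passed the filter, in DCKO against DN3a (blue) and DCKO against DN3b (orange). They are split by the parental copy under which they were listed, which was not measured in these cells. Filled points passed an adjusted p of 0.05 over all genes and open points did not; Cd81 lies on opposite sides of 0 in the 2 contrasts, and Sfmbt2 and Osbpl5 are lower in both.

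The ligand-receptor axis around Igf2 was represented by 17 further genes, of which 8 passed the filter. In DCKO 2 rose and 3 fell against DN3a (60.2% of all genes called), and 1 rose and 1 fell against DN3b (18.9%). Igf2bp3, an RNA-binding protein of fetal cells that binds Igf2 and other messenger RNAs, stood at 6.61, 7.63, 4.90 and 6.92 CPM in DN3a against 9.29, 9.06, 7.62 and 7.94 in DN3b and 13.5, 28.3, 15.5 and 30.3 in DCKO. Every DCKO library lay above every control library. It rose by 1.75 ± 0.25 against DN3a (3.36-fold, edgeR adjusted p = 8.23e-05) and by 1.37 ± 0.25 against DN3b (0.00254).

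The paralogue Igf2bp2 went the other way in DCKO. It fell by 1.06 ± 0.16 against DN3a (edgeR adjusted p = 0.000145) and by 0.77 ± 0.16 against DN3b (0.00667). The insulin receptor gene Insr fell by 0.64 ± 0.13 against DN3a (0.00108), and Igf1r, the receptor through which IGF1 and IGF2 signal, rose by 0.76 ± 0.21 (0.00738). Igf1r differed from DN3b by 0.63 ± 0.21 (0.0549). The third gene that fell against DN3a, Mgea5, encodes O-GlcNAcase and is not a component of IGF signalling, although the list held it. Igfbp1 and Igfbp2, which encode IGF-binding proteins, were at 0 counts in every library, and the ligand gene Igf1 had 50 counts in all 12 together.

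Factors that keep or remove methylation at imprinted loci were tested as a list of 18, of which 16 passed the filter. In DCKO against DN3a 7 rose and 3 fell, beside 60.2% of all genes called. Dnmt1, the maintenance DNA methyltransferase, rose from 464 ± 91.0 to 1014 ± 102 CPM (log2 1.13 ± 0.16, edgeR adjusted p = 8.11e-05), and the chromatin remodeller Hells rose by 1.92 ± 0.24 (3.3e-05). The dioxygenase gene Tet1, whose product oxidises methylated cytosine, fell by 1.47 ± 0.14 (6.83e-06), and Tet2, of the same family, fell from 48.6 ± 1.57 to 24.3 ± 2.60 CPM (8.64e-05). Against DN3b, where 18.9% of all genes were called, none of the 16 rose, and Tet1 (-0.68 ± 0.14, 0.00564) and the histone methyltransferase gene Ehmt2 (-0.71 ± 0.21, 0.0316) fell. Dnmt1 was at 1113 ± 203 CPM in DN3b, where the difference from DCKO had an adjusted p of 0.59.

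Over the 12 libraries, the genes whose log2 CPM was most like that of H19 among 8469 genes were Tm6sf1 (Pearson r = 0.968), Slc5a9 (0.966), Pld4 (0.940), Nsun4 (0.932), Socs3 (0.930) and Dtx1 (0.928). These libraries share their groups, so the values rest largely on the step from DN3a to the other groups. The choice by r over these libraries also favours genes that share the order of libraries within a group, so that order is given only as a description. Dtx1, a regulator of Notch signalling, stood at 209, 49.8, 54.9 and 98.7 CPM in DN3a against 56.4, 12.3, 12.1 and 27.4 in DN3b and 28.2, 40.5, 9.05 and 4.24 in DCKO. As for H19, library 1 was the highest of DN3a and of DN3b, library 2 the highest of DCKO and library 4 its lowest. Tm6sf1, Slc5a9, Pld4 and Socs3 also had their highest DN3b level in library 1, their highest DCKO level in library 2 and their lowest DCKO level in library 4. Nsun4 ranged only from 22.7 to 30.5 CPM in all. Among the genes least like H19 were Ano6 (r = -0.971) and Tinf2 (-0.948), and Ano6 stood at 145 ± 13.9, 243 ± 39.2 and 225 ± 61.6 CPM in DN3a, DN3b and DCKO.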

How the data were processed

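Stranded total RNA libraries were made after ribosomal RNA depletion, per the labels' protocols. Trim Galore, TopHat2 2.0.12, HTSeq, DESeq2 1.6.3 and build GRCm38 are named in the submitters' processing notes; an annotation release and a strand setting were not given in the sources used here. The authors deposited raw counts per Ensembl gene, 1 column per library. Symbols, positions and exon lengths came from GENCODE M21 (42462 of 43629 identifiers matched).

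In R 4.3.3, all 12 libraries entered 1 quasi-likelihood model of edgeR 4.0.16 without covariates beyond group, with TMM factors and filterByExpr (minimum count 10; 13944 genes kept); Benjamini-Hochberg adjustment ran over all genes per contrast, two-sided, with 0.05 as the threshold. A standard error is the log2 fold change divided by the square root of F. CPM uses TMM-scaled sizes. The fit was tested on simulated counts. Alternatives used limma 3.58.1, DESeq2 1.42.0, other scalings, filters and sets of libraries. Depth makes counting error small for abundant genes; for scarce genes the counts are printed, and PCR copies are not separated.

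The genes and lists were chosen with earlier results of these data known. Named were the 10 genes, up to 4 called genes per list with the smallest adjusted p, the 6 genes most and 3 least like H19 by Pearson r (mean log2 CPM of at least 3), and the neighbours of H19. Of the 3 least like H19, 1 is not reported here. Igf1r, Igf1, Igfbp1, Igfbp2, Ehmt2 and genes given as examples of markers or of genes at 0 were named after their values were seen. Replicate numbers paired DN3a with DN3b (correlation of same-numbered deviations 0.354 to 0.564), and with that pairing as a block the DN3b to DN3a contrast called 9233 genes.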

Additional observations from a re-analysis of the deposited data

Results flagged for a closer look

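H19 in DN3b library 1 stood at 106 CPM, far from the other 3 DN3b libraries (14.8 to 28.7 CPM), in a test of the gap between the extreme library and its nearest neighbour against the range of the group (Dixon's test at the 95% level). It was the only such library among 16 groups of 4 tested, and chance marks about 1 group in 20. The same-numbered DN3a library held the highest H19 of its group, 733 CPM. Without DN3b library 1 the log2 difference between DN3b and DN3a, a description, was -4.30 in place of -3.38, and that between DCKO and DN3b was 1.91 (edgeR adjusted p = 0.117).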

How the results depend on the processing

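The DCKO to DN3b contrast called 2635 genes, and 950 without DCKO libraries 1 and 2 and 1601 to 3249 with 1 library left out. With the replicate number as a block it called 1062; DCKO numbers did not pair with those of the controls (correlations from -0.192 to 0.119 with DN3a and -0.257 to 0.0691 with DN3b), and not every library correlated best with its own number. Under that block Grb10 in DCKO against DN3a was 1.29 (edgeR adjusted p = 0.120) and Igf2r in DCKO against DN3b 0.38 (0.103), and in the IGF list, in DN3b against DN3a, where numbers do pair, Igf2bp3 passed (0.37, 0.0281), as did Igf2bp2 (-0.32, 0.0403). Directions in DCKO against DN3b, none past the threshold, turned for H19 (-0.75) and Igf2 (-2.19) and Commd1 (-0.0155) without DCKO libraries 1 and 2, for Igf2 (-1.19) without DCKO library 2, and for Cdkn1c (-0.0210) without DN3b library 4; with 1 library left out these ran from -1.19 to 1.36 for Igf2 and from -0.0210 to 0.61 for Cdkn1c. Grb10 in DCKO against DN3a missed the threshold also with upper quartile scaling (1.26, 0.0503), limma-voom (1.32, 0.0582), without DCKO libraries 1 and 2 (0.56, 0.415) and without libraries 1 of DN3a and DN3b together (1.23, 0.0677), an alternative chosen after seeing the data. Cdkn1c and Igf2 had too few counts for some alternatives. The cause of these changes was not tested. Counts under about 20 per library limit Igf2 in DN3b and DCKO, Cdkn1c and the 4 untested genes.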

Other observations

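Genes of the fetal haematopoietic programme, a list of 11 that includes Lin28b, Hmga2 and the Igf2bp family, gave 8 genes that passed the filter. In DCKO 5 rose and 2 fell against DN3a (60.2% of all genes called), and 2 rose and 1 fell against DN3b (18.9%). Hmga1, a chromatin architectural protein, rose against DN3a by 1.36 ± 0.19 on the log2 scale (edgeR adjusted p = 6.2e-05), and stood at 42.1 ± 7.45 CPM in DN3a against 137 ± 22.4 in DN3b and 108 ± 29.0 in DCKO. Elavl1, which binds and stabilises AU-rich transcripts, rose by 1.18 ± 0.15 against DN3a (4.27e-05) and by 0.56 ± 0.15 against DN3b (0.0228), a call lost in 5 of 21 alternatives (adjusted p up to 0.115), among them the removal of library 2 of DN3b and of libraries 2 and 3 of DCKO, each on its own. The other calls against DN3b were Igf2bp3, which rose, and Igf2bp2, which fell, and both are also in the IGF list.

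Nnat, a paternally expressed gene of the nervous system, had 127 counts in DCKO library 3 and 0 in each of the other 11 libraries. It was chosen after its values were seen.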
